A study of Mus musculus with 10 samples.

Results

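A set of 590 chromatin regions, of 77076 in the table of accessible regions, gained accessibility from central to effector regulatory T cells of the wild type but stayed at a low level in effector cells that lack Fntb. They were chosen by their read counts. Accessibility is given in CPM, the count of a region relative to all counts of its library, and each member had a mean of at least 3 in wild-type (WT) effector cells, at least 2 times the mean in WT central cells, and every WT effector library above every WT central library. The mean in FntbKO effector cells had to lie below the geometric mean of both WT means, which is the midpoint of the WT change on a log scale. There were 1342 such WT openings in all, and the other 752 met every condition but the last.

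The assay was ATAC-seq, in which a transposase cuts and tags open DNA, on regulatory T (Treg) cells of mice. The cells had been sorted, from lymph nodes and spleen together, out of mixed bone marrow chimeras, in which marrow of more than 1 donor rebuilds the blood of a host. WT cTreg and WT eTreg cells gave 3 libraries each, and FntbKO cTreg and FntbKO eTreg cells, which are deficient in Fntb, gave 2 each. The comparison asks how accessibility of both subsets depends on Fntb. No treatment was named for any group. The labels do not give the allele, the Cre driver or the age of the mice, nor do they say whether libraries of a group came from separate animals, so p-values below measure only the spread between these libraries.

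Treg cells restrain immune responses and depend on the transcription factor Foxp3. Central Treg (cTreg) cells resemble resting lymphocytes and circulate through lymphoid organs, while effector Treg (eTreg) cells have been activated through the T cell receptor, carry more inhibitory receptors and enter tissues. Fntb encodes the β chain of farnesyltransferase, which gives RAS, nuclear lamins and other proteins the farnesyl group with which they hold to membranes. Opening of distal regions by AP-1 and related factors is a known part of effector differentiation.

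The sequences at gene starts are shown because they are the only member regions whose letters could be read. RefSeq (GRCm38.p6) promoter windows, from 250 bases upstream to 50 downstream of each listed start, were overlapped by a member at 19 starts. The windows were searched on both strands for AP-1 (TGANTCA), RUNX (TGTGGTT), the interferon-stimulated response element ISRE (GAAA, any 2 bases, GAAA), NF-kB (GGGANTTCC) and ETS (CCGGAAG). Of the 19 windows, 4 (21.1%) held AP-1 letters, against 23.1% of 26 windows overlapped by another WT opening, 4.91% of 12882 windows overlapped by any region and 7.81% of all 32851 windows. RUNX letters were in 3 windows (15.8%), against 11.5%, 4.01% and 5.27% in the same order. ISRE letters were in 1 window (5.26%), against 11.5%, 3.03% and 3.44% in the same order. ETS letters were in 1 window (5.26%), against 0%, 18.1% and 8.86%. NF-kB letters were in 0 of the 19 windows and in 1.68% of all windows. The median window held 6 CpG dinucleotides, against 5 for the other openings, 22 for windows overlapped by any region and 7 for all windows. A match of letters is a description and not a shown binding site. For some of them, the stretch of the member that lies upstream of the start is printed 5′ to 3′ on the strand of the gene, with matches in capitals. Dhrs9 (chr2:69380263-69380461, plus strand), a dehydrogenase of the retinol pathway, Havcr2 (chr11:46454681-46454930, plus), which encodes the inhibitory receptor TIM-3 and Osgin1 (chr8:119436939-119437146, plus), a gene of the oxidative stress response, hold AP-1 letters. Havcr2 also holds RUNX letters, and Spp1 (chr5:104434907-104435110, plus), which encodes the cytokine osteopontin, holds RUNX and ISRE letters, both on the opposite strand.
Dhrs9: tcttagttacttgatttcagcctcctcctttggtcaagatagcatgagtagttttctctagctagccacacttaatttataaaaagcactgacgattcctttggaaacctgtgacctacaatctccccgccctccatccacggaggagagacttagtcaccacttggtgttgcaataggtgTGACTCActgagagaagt
Havcr2: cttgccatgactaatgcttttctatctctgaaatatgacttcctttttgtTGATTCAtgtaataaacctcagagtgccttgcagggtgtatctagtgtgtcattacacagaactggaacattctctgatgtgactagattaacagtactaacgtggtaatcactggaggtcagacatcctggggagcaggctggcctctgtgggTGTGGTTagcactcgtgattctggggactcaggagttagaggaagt
Osgin1: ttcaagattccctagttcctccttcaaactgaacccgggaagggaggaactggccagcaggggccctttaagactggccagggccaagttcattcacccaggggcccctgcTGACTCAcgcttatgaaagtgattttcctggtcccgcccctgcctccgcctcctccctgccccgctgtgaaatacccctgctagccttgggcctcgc
Spp1: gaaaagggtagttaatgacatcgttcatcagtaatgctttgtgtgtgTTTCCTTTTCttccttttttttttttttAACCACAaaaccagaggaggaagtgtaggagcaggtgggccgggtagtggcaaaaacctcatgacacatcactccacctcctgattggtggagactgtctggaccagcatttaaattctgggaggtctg

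The Dhrs9 start region (chr2:69380263-69380714) had the highest WT eTreg mean of all members. It held 25.5, 31.3 and 18.9 CPM in WT cTreg libraries 1 to 3, 55.5, 54.2 and 53.6 in WT eTreg libraries 1 to 3, 11 and 17.9 in FntbKO cTreg libraries 1 and 2, and 29.7 and 39.6 in FntbKO eTreg libraries 1 and 2. Every FntbKO cTreg library lay below every WT cTreg library, and of the FntbKO eTreg libraries the first lay inside the WT cTreg range and the second between the WT subsets. The rise within FntbKO cells was 1.24 in log2 (SE 0.21, adjusted p = 0.00732, edgeR).

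The Havcr2 start region held 5.79, 7.02 and 7.7 CPM in WT cTreg, 14.2, 15.9 and 16.5 in WT eTreg, 3.22 and 5.48 in FntbKO cTreg, and 3.95 and 13 in FntbKO eTreg. The FntbKO eTreg libraries stood far apart, the first within the FntbKO cTreg range and the second just under WT eTreg. At the Spp1 start the counts were low: 0.551 to 1.23 CPM in WT cTreg, 2.85 to 3.7 in WT eTreg, 1.07 and 1.17 in FntbKO cTreg, and 0.791 and 1.68 in FntbKO eTreg. The FntbKO subsets overlapped there and both lay near WT cTreg. At Osgin1 the FntbKO eTreg libraries held 2.37 and 5.92 CPM. The first lay between the FntbKO cTreg values of 1.61 and 4.57 and the second above them.

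The libraries held 5058328 to 15328775 counts. The region at the Fntb start (chr12:76837192-76837915) had 29.9 to 36.4 CPM in WT cTreg, 29 to 30.9 in WT eTreg, 11.2 and 12.9 in FntbKO cTreg and 7.51 and 11.5 in FntbKO eTreg, so the labelled genotype was visible with no overlap, at 36.3% of WT in cTreg and 31.7% in eTreg. All 5 Treg markers examined (Foxp3, Il2ra, Ctla4, Ikzf2 and Tnfrsf18) had regions, 95 together, with summed accessibility of 1227 to 1422 CPM over the 10 libraries. The 185 regions of 11 naive CD4 T cell genes summed to 2266 to 2418 CPM in WT cTreg, 1809 to 2150 in WT eTreg, 2489 and 2593 in FntbKO cTreg and 2234 and 2266 in FntbKO eTreg. FntbKO libraries of each subset were thus above those of the matching WT subset at these genes. The part of resting cells in the results below was not tested. Regions of 8 of 12 myeloid genes summed to 348 to 421 CPM in WT cTreg, 403 to 441 in WT eTreg, 319 and 355 in FntbKO cTreg and 378 and 391 in FntbKO eTreg, with no region at Lyz2, Csf1r, Adgre1 or Fcgr3. Regions of 6 of 10 B cell genes summed to 128 to 162 CPM, with no region at Ms4a1 or Cd79b. Regions of 7 of 9 dendritic cell genes summed to 326 to 418 CPM in WT cTreg, 359 to 395 in WT eTreg, 293 and 339 in FntbKO cTreg and 326 and 343 in FntbKO eTreg, so FntbKO eTreg lay below WT eTreg there, with no region at Xcr1 or Cd209a. The part of such cells in the results was not tested. In cell populations such as these, fewer open cells and less opening per cell cannot be told apart.

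Across the members, the median accessibility was 2.28 CPM in WT cTreg, 5.70 in WT eTreg, 1.70 in FntbKO cTreg and 2.86 in FntbKO eTreg. The rule used the first, second and last of these groups, so their values are given as a description. By library, the median member held 1.93, 2.63 and 2.35 CPM in WT cTreg, 5.46, 5.50 and 6.39 in WT eTreg, 1.07 and 2.09 in FntbKO cTreg and 2.37 and 3.26 in FntbKO eTreg. The FntbKO eTreg libraries lay near WT cTreg, and FntbKO cTreg library 1 was the lowest of all. The other 752 openings had medians of 2.11 CPM in WT cTreg, 5.45 in WT eTreg and 4.84 in FntbKO eTreg, so they were close to the members in WT and differed in FntbKO eTreg, by the rule itself. All regions together had medians of 5.06, 4.94, 4.96 and 4.99.

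**Figure D1:**
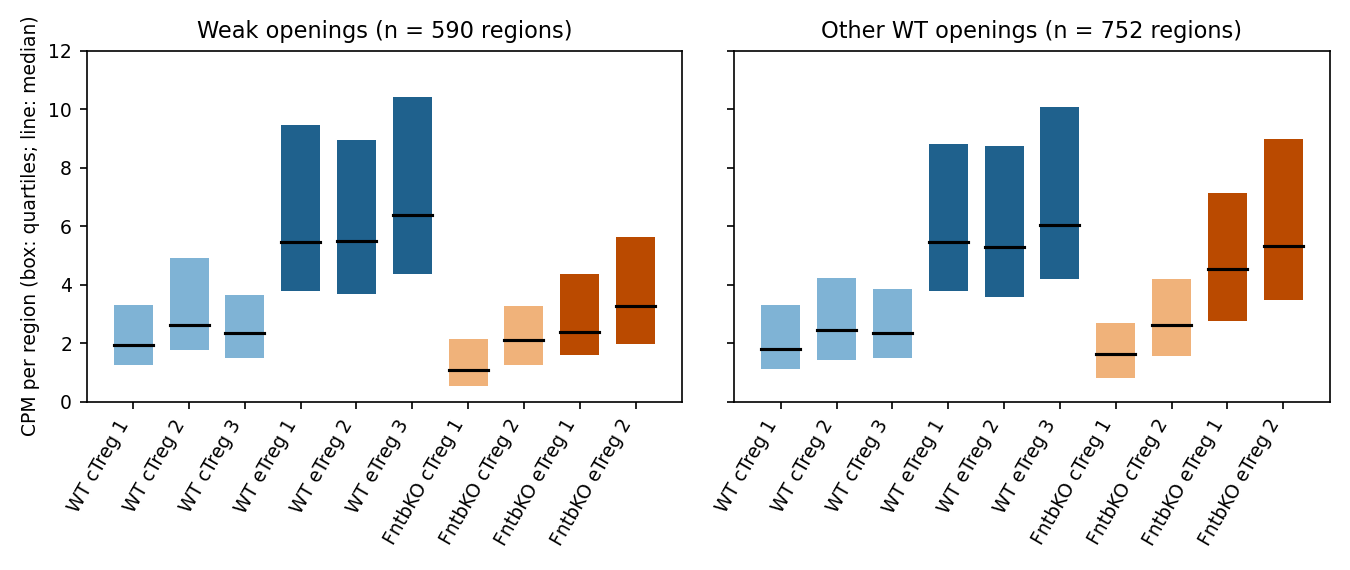
Accessibility at the 590 members and at the other 752 WT openings in each of the 10 libraries (CPM), with boxes from the lower to the upper quartile over regions and a line at the median. At members the FntbKO eTreg medians of 2.37 and 3.26 CPM lie near those of WT cTreg (1.93 to 2.63), and FntbKO cTreg library 1 is lowest at 1.07.

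The label given to these regions, openings that are weak without Fntb, was examined against the FntbKO cTreg libraries, the only group that the rule did not use. On the log2 scale with 0.25 CPM added, the median member rose by 1.19 from WT cTreg to WT eTreg and by 0.80 from FntbKO cTreg to FntbKO eTreg. Relative to WT, FntbKO eTreg was lower by a median of -0.93 and FntbKO cTreg by -0.52. The other openings had medians of 1.23, 1.19, -0.31 and -0.09 for the same 4 ratios. At members the low FntbKO eTreg level, which the rule requires, came with a median FntbKO cTreg level below WT cTreg. Choosing on WT inflates the WT rise of 1.19, and the limit on FntbKO eTreg holds down the rise of 0.80. How much of the WT change is kept without Fntb can therefore not be read from these ratios.

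FntbKO cTreg had a lower mean than WT cTreg at 506 members (85.8%), at 56.9% of the other openings and at 52.6% of all regions. Both FntbKO cTreg libraries lay below all 3 WT cTreg libraries at 164 members (27.8%), against 9.97% of the other openings and a background of 15.6% of all regions. The opposite order, both above all 3, held for 11 members (1.86%) against a background of 14.2%. Library 1 of FntbKO cTreg was below library 2 at 85.1% of members, a share that was 84.8% at the other openings and 54.5% over all regions. With library 2 alone, 70.7% of members still lay below the WT cTreg mean, against 36.4% of the other openings and 51.0% of all regions. WT cTreg entered the rule on both sides, since the 2-fold minimum keeps it low and the limit on FntbKO eTreg moves up with it, so these shares are not independent of the choice of members.

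By edgeR's quasi-likelihood test over 76216 regions, 4 of the 590 members (0.678%) were lower in FntbKO cTreg than in WT cTreg at an adjusted p under 0.05 and 0 were higher, against a background of 0.378% lower and 0.19% higher. DESeq2 called 10 lower and 0 higher. At an unadjusted p under 0.05, 118 of the 590 members were lower and 3 higher, against 6.73% and 5.70% of all regions tested. The 4 were regions in Runx1 and Fbxl2, 1 near Olfr183 and 1 with no gene within 100 kb (chr10:24482009-24482628). Runx1 encodes a DNA-binding partner of Foxp3. Its region (chr16:92653808-92654254, inside the gene span) held 4.96, 9.83 and 5.78 CPM in WT cTreg, 11.6, 16.3 and 13.8 in WT eTreg, 1.88 and 2.87 in FntbKO cTreg and 7.12 and 5.92 in FntbKO eTreg. The FntbKO cTreg libraries lay below every other library, and FntbKO eTreg reached the WT cTreg range. The difference between the cTreg groups was -1.43 in log2 (SE 0.32, adjusted p = 0.0338, edgeR). At Fbxl2, which encodes an F-box protein that carries its own CAAX lipid anchor, the region (chr9:114016377-114016776, inside the span) held 4.96, 7.73 and 3.1 CPM in WT cTreg and 1.07 and 1.96 in FntbKO cTreg, a difference of -1.65 (SE 0.38, adjusted p = 0.0397, edgeR). FntbKO eTreg reached 3.16 and 4.15 CPM, against 11.4 to 13.1 in WT eTreg. The calls were 0 without FntbKO cTreg library 1, WT cTreg library 2 or WT eTreg library 3, and 2 without WT eTreg library 1. They were 38 without FntbKO cTreg library 2.

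The FntbKO eTreg mean was above the FntbKO cTreg mean at 550 members (93.2%), at 97.6% of the other openings and at 49.7% of all regions. A rise of at least 2-fold was seen at 251 members (42.5%), 69.9% of the other openings and 7.81% of all regions. Both FntbKO eTreg libraries lay above both FntbKO cTreg libraries at 356 members (60.3%), against 84.0% of the other openings and a background of 24.1% of all regions. The reverse order held for 8 members, against a background of 24.7%. Paired only by number, library 1 of FntbKO eTreg was above library 1 of FntbKO cTreg at 87.3% of members and library 2 above library 2 at 89.2%. The same shares were 95.7% and 96.0% of the other openings and 50.1% and 48.7% of all regions.

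The test of FntbKO eTreg against FntbKO cTreg called 26 members higher (4.41%) and 0 lower, against backgrounds of 0.966% and 0.39%. DESeq2 called 37 higher and 0 lower. At an unadjusted p under 0.05, 222 members (37.6%) were higher and 0 lower, against 8.50% and 6.75% of all regions tested. Because the rule keeps FntbKO eTreg low, it works against calls of higher here. The other openings held 136 calls (18.1%). They lie at or above the same limit by the rule, which works toward such calls, so nothing is read from the difference. The 26 calls fell to 0 without FntbKO cTreg library 1, to 0 without FntbKO eTreg library 2 and to 7 without FntbKO eTreg library 1. They fell to 14 without WT eTreg library 1 or WT cTreg library 3, and rose to 53 without WT cTreg library 2 and 94 without FntbKO cTreg library 2. In the contrasts that the rule used, 278 members were called higher in WT eTreg than WT cTreg (background 1.83%) and 11 lower in FntbKO eTreg than WT eTreg (background 0.169%), from which nothing is read. FntbKO eTreg libraries lay below all WT eTreg libraries at 509 members (background 15.6%), also by choice. For the interaction of genotype and subset, which asks whether the FntbKO change is smaller than the WT change, edgeR called 0 members and 0 regions in all. At an unadjusted p under 0.05, 48 members (8.14%) had a smaller FntbKO change and 0 a larger one, against 1.61% and 2.46% of all regions tested, in a contrast that the rule used.

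**Figure D2:**
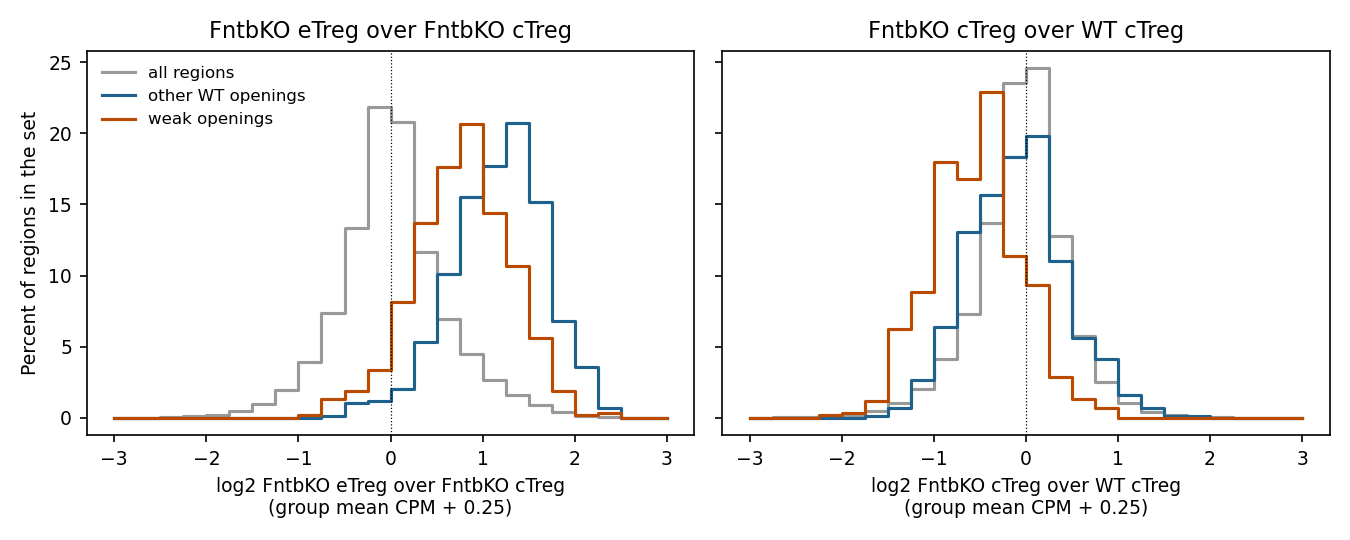
Distributions over regions of the log2 ratio of FntbKO eTreg to FntbKO cTreg and of FntbKO cTreg to WT cTreg (mean CPM with 0.25 added), for members, other WT openings and all regions. Members have medians of 0.80 and -0.52, the other openings 1.19 and -0.09.

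To see how far choosing regions on the same counts sets these values, the rule was applied without the libraries of 1 number and the chosen regions were read in the libraries left out. This gives 1 library per group and no test. Chosen without the number 1 libraries, 637 regions had, in those libraries, a median log2 ratio of eTreg to cTreg of 1.09 in WT and 1.01 in FntbKO. Chosen without the number 2 libraries, 1411 regions had ratios of 0.49 in WT and 0.72 in FntbKO. The other openings chosen in the same way (931 and 1226 regions) had ratios of 1.08 in WT and 1.18 in FntbKO for number 1, and 0.53 and 0.83 for number 2. The FntbKO ratio of the chosen regions was thus below that of the other openings both times, while against WT it was slightly lower in 1 case and higher in the other. The lower levels remained: FntbKO eTreg was below WT eTreg by a median of -0.68 and -0.32, and FntbKO cTreg below WT cTreg by -0.62 and -0.53. For the other openings, FntbKO eTreg differed from WT eTreg by -0.36 and -0.08 and FntbKO cTreg from WT cTreg by -0.42 and -0.33. FntbKO eTreg fell below the WT geometric mean in the left-out libraries at 55.9% and 54.8% of the chosen regions, against 37.8% and 35.4% of the other openings. So in the left-out libraries the opening was weaker than at the other openings in both cases, and weaker than in WT in 1 case only, with no test of either. Of the 637 and 1411 regions, 49.0% and 33.1% were among the 590 members. FntbKO cTreg library 1 had the lowest summed accessibility at members, 985 CPM, against 1662 in FntbKO cTreg library 2. WT cTreg library 2 had the highest of the WT cTreg libraries, 2428 CPM against 1657 and 1903, and both libraries weigh on the ratios of their own number.

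**Figure D3:**
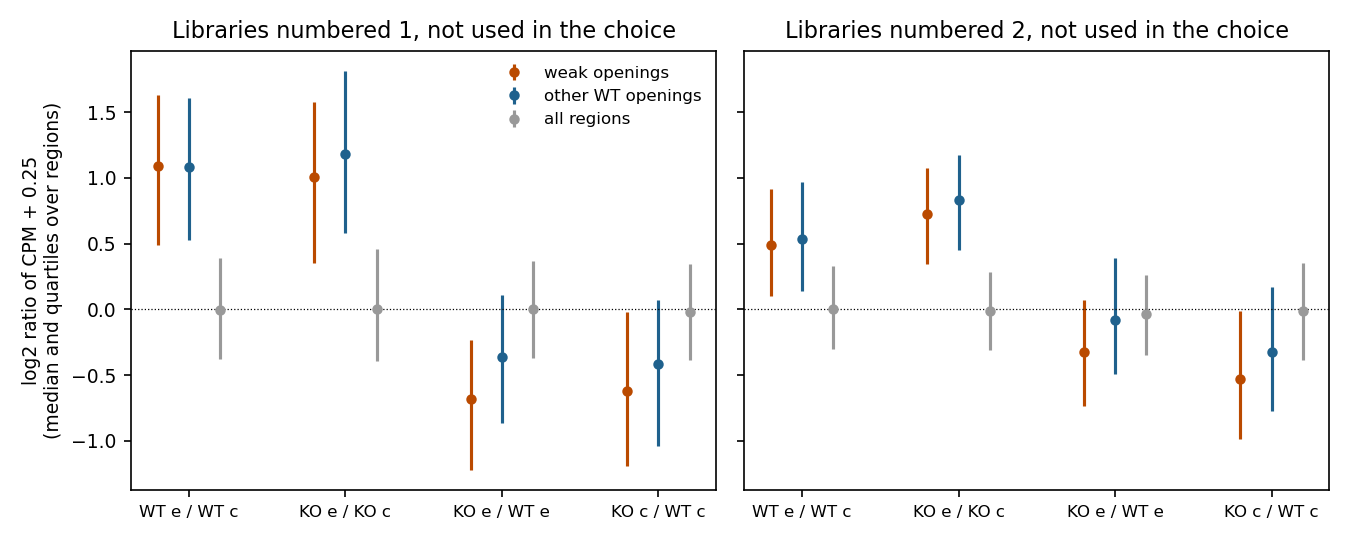
Median log2 ratios in the left-out libraries for regions chosen without them, 637 regions for number 1 and 1411 for number 2, beside other openings and all regions, with error bars over the quartiles of the regions. The FntbKO subset ratios of 1.01 and 0.72 stand beside WT ratios of 1.09 and 0.49, while FntbKO lies below WT in both subsets.

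Genes of the effector Treg program had the highest share of members among the pathway lists examined when regions outside genes were counted. Within gene spans alone, adhesion and migration genes had the higher share, 8 of 191 regions (4.19%) against 6 of 240 (2.50%) for effector genes. The members of Ccr2 and Cxcr3 count in both lists. The lists were chosen with earlier results of these data known, so their ranks are a description. A gene here is the protein-coding span that a region overlaps or, failing that, the nearest within 100 kb, which is a position and not a shown target. The list of 45 effector genes had 482 regions, of which 18 (3.73%) were members, at 13 genes, against 0.766% of all regions. Another 12 (2.49%) were other openings, against 0.976% of all regions. Among the 18 members, 17 were higher in FntbKO eTreg than FntbKO cTreg by their means, 13 without overlap, and 17 were lower in FntbKO cTreg than WT cTreg, 8 without overlap. In the same order, the shares over all members were 93.2%, 60.3%, 85.8% and 27.8%. Over all regions they were 49.7%, 24.1%, 52.6% and 15.6%. The FntbKO eTreg mean was a median of 54.2% of WT eTreg at these 18 and 50.5% at all members. Only 6 of the 18 lay inside the span of the gene.

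Il10 encodes the suppressive cytokine interleukin 10 and had 3 members. The strongest (chr1:131003119-131003763), 16.1 kb from the gene, held 11.3, 17.6 and 11.1 CPM in WT cTreg, 38.8, 26 and 44.7 in WT eTreg, 3.09 and 9.65 in FntbKO cTreg and 19.4 and 23.7 in FntbKO eTreg. The FntbKO cTreg libraries were below all others and the FntbKO eTreg libraries lay between the WT subsets. The rise in FntbKO cells was 1.66 in log2 (SE 0.44) and did not pass (adjusted p = 0.106, edgeR). The other Il10 members, 19.1 kb and 32 kb away, had FntbKO eTreg at 57.1% and 53.4% of WT.

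Maf encodes a transcription factor that acts with AP-1 partners and drives Il10. Its member (chr8:115742593-115743118, 35.7 kb away) held 8.54, 11.6 and 10.3 CPM in WT cTreg, 22.5, 23.9 and 31.4 in WT eTreg, 3.76 and 7.57 in FntbKO cTreg and 15.4 and 17 in FntbKO eTreg. The 4 groups did not overlap, in the order FntbKO cTreg, WT cTreg, FntbKO eTreg, WT eTreg. FntbKO eTreg was higher than FntbKO cTreg by 1.45 (SE 0.26, adjusted p = 0.00732, edgeR), while FntbKO cTreg against WT cTreg was -0.75 (SE 0.25, adjusted p = 0.181). This region is also the second nearest to the limit on FntbKO eTreg, at 0.999 of the WT geometric mean.

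Tigit encodes an inhibitory receptor of effector Treg cells. The member inside the gene (chr16:43661552-43661888) held 7.58, 8.43 and 8.56 CPM in WT cTreg, 20.3, 13.8 and 21 in WT eTreg, 1.61 and 5.22 in FntbKO cTreg and 9.49 and 11.7 in FntbKO eTreg. Again no group overlapped another, in the same order as at Maf. The rise in FntbKO cells was 1.52 (SE 0.34, adjusted p = 0.0236, edgeR). A different Tigit opening 32.7 kb away (chr16:43697822-43698061), which was not a member, had FntbKO eTreg at 59.8% of WT against 57.5% for the member.

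Klrg1 encodes an inhibitory lectin receptor that marks terminally differentiated effector cells, and it had 3 members, all outside the span. The one 11 kb away (chr6:122293796-122294226) held 10.2, 26.2 and 14 CPM in WT cTreg, 29.2, 37.2 and 37.3 in WT eTreg, 6.31 and 14.4 in FntbKO cTreg and 16.4 and 26.3 in FntbKO eTreg. WT cTreg library 2 stood apart from the other WT cTreg libraries and was close to the eTreg range. At the member 7.5 kb away (chr6:122262538-122263143) FntbKO eTreg held 3.16 and 3.95 CPM, or 26.1% of WT eTreg (11.6 to 16.1 CPM), inside the WT cTreg range of 1.79 to 4.49. The third, 0.1 kb away, stood at the 2-fold limit of the rule, with a WT ratio of 2.00.

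Pdcd1, which encodes the inhibitory receptor PD-1, had 2 members that differed in FntbKO cTreg. Inside the gene (chr1:94042147-94042775) WT cTreg held 5.51 to 8.43 CPM, FntbKO cTreg 1.07 and 5.87 and FntbKO eTreg 9.09 and 11.7, against 13.3 to 16.5 in WT eTreg. At the region 22 kb away (chr1:94074598-94075214) FntbKO cTreg held 8.86 and 9.26 CPM, above the 5.03 to 6.85 of WT cTreg, and FntbKO eTreg held 7.12 and 9.58. FntbKO cTreg was thus 47.2% of WT cTreg at the first and 150% at the second, the only one of the 18 effector members above WT. Its FntbKO subsets overlapped, with a difference of -0.10 (SE 0.28, adjusted p = 0.914, edgeR).

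The remaining effector members lay in or near Nt5e, the ecto-enzyme CD73 (FntbKO eTreg at 54.9% of WT), Prdm1, the repressor Blimp-1 (51.2%), Ccr2, a chemokine receptor (51.6%), Pparg, the lipid-sensing receptor of adipose-tissue Treg cells (53.7%), Epas1, a hypoxia-induced factor (41.9%), Cxcr3, a chemokine receptor (40.8%), and Ikzf3, a zinc-finger factor (24.0%). At Prdm1 the member (chr10:44419814-44420508) had FntbKO eTreg libraries at 0.989 and 4.74 CPM, which lay on both sides of the WT cTreg range of 2.2 to 3.34. A pair of other Prdm1 openings had FntbKO eTreg at 71.8% and 74.9% of WT, so neighbouring regions of the gene fell on different sides of the rule.

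**Figure D4:**
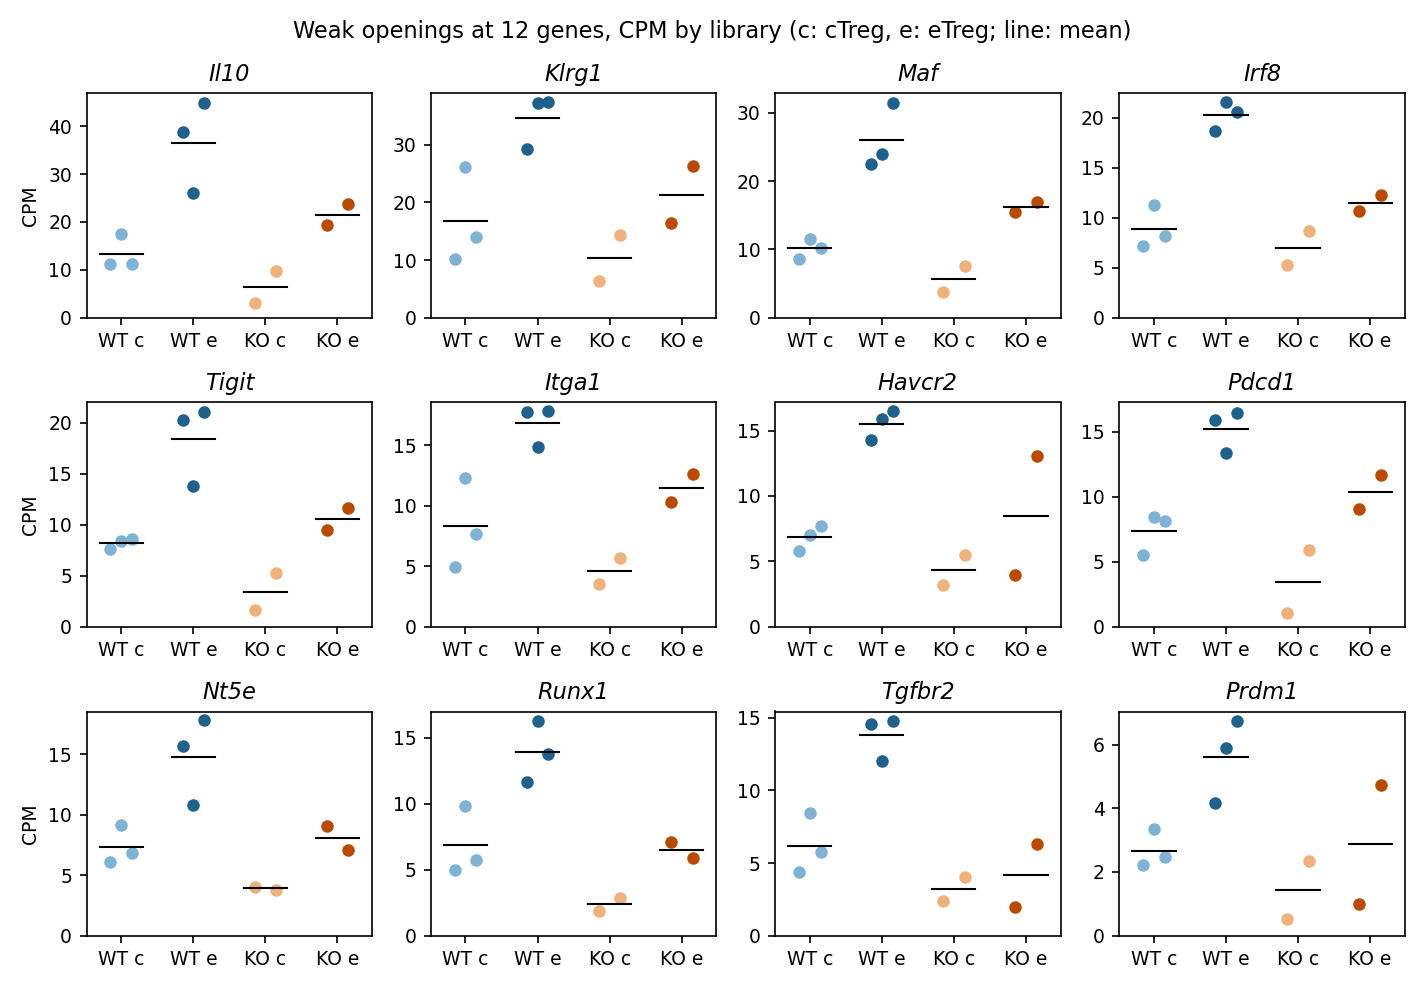
Accessibility (CPM) in each library at 1 member region for each of 12 genes, with points for libraries and short lines for group means. At Maf and Tigit the order FntbKO cTreg, WT cTreg, FntbKO eTreg, WT eTreg holds with no overlap, whereas at Havcr2 the FntbKO eTreg libraries of 3.95 and 13 CPM lie far apart.

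Helper T cell genes gave no member. The 24 genes of that list, which includes the lineage factor Tbx21 and the cytokines Ifng and Il17a, had 268 regions with 0 members and 12 other openings (4.48%), at 10 genes. Over all regions, 0.766% were members and 0.976% other openings. At so low a share a list of this size holds few members, so nothing is read from the 0. At Tbx21, which encodes T-bet, 2 openings had FntbKO eTreg at 75.3% and 86.1% of WT. At an opening 5.1 kb from Ifng (chr10:118435226-118435923) FntbKO eTreg held 9.09 and 9.88 CPM, or 85.9% of WT. Near Il17a (chr1:20743785-20744360), FntbKO eTreg stood at 59.6% of WT and FntbKO cTreg at 45.2%, with a rise in FntbKO cells of 2.01 (SE 0.32, adjusted p = 0.00419, edgeR). No test compared the lists.

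Among transcription factors of the AP-1, BATF and IRF list, 4 of 294 regions (1.36%) were members and 0 were other openings. Besides Maf, these were at Irf1 and Irf8, factors of the interferon response. The Irf8 member 19.4 kb away (chr8:120716207-120716965) held 7.16, 11.2 and 8.13 CPM in WT cTreg, 18.6, 21.6 and 20.5 in WT eTreg, 5.23 and 8.61 in FntbKO cTreg and 10.7 and 12.2 in FntbKO eTreg. FntbKO eTreg stood just above FntbKO cTreg and overlapped the top of WT cTreg, with a rise of 0.69 (SE 0.26, adjusted p = 0.176, edgeR). The interferon response list itself had 64 regions, with 0 members and 0 other openings, against 0.766% and 0.976% of all regions.

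Genes induced by the T cell receptor had 5 members in 396 regions (1.26%), 1 each near Cd5 and Cd69, surface markers of signal strength and activation, Ier3, Myc, a driver of cell growth, and Tox2. In all 5, both FntbKO eTreg libraries lay above both FntbKO cTreg libraries and below all WT eTreg libraries. The first order held at 60.3% of all members and 24.1% of all regions. The second held at 86.3% of all members, by choice, and 15.6% of all regions. FntbKO eTreg was 52.0% to 63.6% of WT at the 5. The PI3K and mTORC1 list had 2 members in 204 regions, inside Pik3r1, the regulatory subunit of PI3K, and Sesn3, an mTORC1 inhibitor. At both, the FntbKO cTreg mean was above WT cTreg (115% and 108%). The list of prenylation enzymes and lamins had 103 regions and 0 members, against 0.766% of all regions.

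NF-kB regulators had 5 members in 230 regions (2.17%), near Nfkbiz, Tnfaip3, which encodes the inhibitor A20, and Tnfrsf8, which encodes CD30. At Nfkbiz (chr16:55735428-55735936, 75.4 kb away) WT cTreg held 3.58 to 5.13 CPM, WT eTreg 8.41 to 9.16, FntbKO cTreg 0.805 and 2.94 and FntbKO eTreg 4.74 and 6.32. The FntbKO subsets did not overlap, and their difference was 1.45 (SE 0.40, adjusted p = 0.0626, edgeR). At the Tnfaip3 member 59.1 kb away FntbKO eTreg held 1.58 and 1.78 CPM, or 30.1% of WT eTreg, beside 1.65 to 2.11 in WT cTreg.

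Adhesion and migration genes had 11 members in 383 regions (2.87%), 8 of them inside a gene. The integrin α1 gene Itga1, which encodes a collagen receptor subunit, had 2 with different patterns. The one 5.4 kb outside the span (chr13:115107377-115107828) held 4.96, 12.3 and 7.7 CPM in WT cTreg, 17.8, 14.9 and 17.8 in WT eTreg, 3.49 and 5.68 in FntbKO cTreg and 10.3 and 12.6 in FntbKO eTreg, a rise in FntbKO cells of 1.29 (SE 0.31, adjusted p = 0.0371, edgeR). The one inside the gene (chr13:115098072-115098787) held 0.827 to 2.14 CPM in WT cTreg, 8.19 to 10.9 in WT eTreg, 1.34 and 1.63 in FntbKO cTreg and 2.37 and 3.65 in FntbKO eTreg. FntbKO cTreg was within WT cTreg there (94.4%), and FntbKO eTreg was 32.5% of WT. A neighbouring region that was not a member (chr13:115097000-115097354) held 7.12 and 7.11 CPM in FntbKO eTreg, 95.6% of WT eTreg. Itga2, the paralogue α2, had 3 members with FntbKO eTreg at 55.4%, 67.2% and 27.5% of WT. Alcam, an adhesion molecule that binds CD6, had a member inside the gene (chr16:52418141-52419026) with FntbKO eTreg at 9.49 and 12.3 CPM against 15.1 to 29.6 in WT eTreg. S1pr1, through which lymphocytes leave lymph nodes, gave the 1 member of the central Treg list (517 regions), with 7.02 to 7.38 CPM in WT cTreg, 11.9 to 16.9 in WT eTreg and 5.93 and 11.9 in FntbKO eTreg.

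Cytokine receptor and Treg identity genes had the lowest median FntbKO eTreg relative to WT among the lists with over 1 member, 31.9% over 2 members and 34.2% over 3. The rule itself limits this level and the Il2rb member counts in both lists, so the rank is only a description. Of 333 regions of cytokine receptor genes, 2 (0.601%) were members, against 0.766% of all regions, and 5 were other openings. Of 203 regions of Treg identity genes, 3 (1.48%) were members and 3 were other openings. Tgfbr2, the signalling receptor for TGF-β, had a member 32.9 kb away (chr9:116208241-116208600) with 4.41, 8.43 and 5.78 CPM in WT cTreg, 14.6, 12 and 14.8 in WT eTreg, 2.42 and 4.04 in FntbKO cTreg and 1.98 and 6.32 in FntbKO eTreg. FntbKO eTreg was 30.1% of WT, and its libraries lay on both sides of FntbKO cTreg. Ikzf2, which encodes Helios, had 2 members, and at the one 61.4 kb away (chr1:69469127-69469776) FntbKO eTreg held 3.56 and 2.77 CPM against 8.14 to 10.4 in WT eTreg, or 34.7%. A different Ikzf2 opening inside the gene (chr1:69533026-69533364) had FntbKO eTreg at 6.33 and 7.9 CPM, 81.8% of WT. Il2rb, the β chain of the interleukin 2 receptor, had a member 4.1 kb away (chr15:78515750-78516091) that held 1.1 to 2.11 CPM in WT cTreg, 3.09 to 3.53 in WT eTreg, 2.28 and 2.61 in FntbKO cTreg and 0 and 2.27 in FntbKO eTreg. Bcl2l11, which encodes the pro-apoptotic protein BIM, had 2 members, at 57.7% and 51.8% of WT eTreg.

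Among markers of other cell types, 0 of 185 regions of naive T cell genes, 0 of 40 of CD8 or NK genes, 0 of 31 of B cell genes and 0 of 8 of erythroid genes were members. Myeloid and dendritic genes each had 1 member in 41 regions (2.44%), against 0.766% of all regions. A region 18 kb from Cebpa, a myeloid factor (chr7:35139904-35140691), held 2.2 to 6.67 CPM in WT cTreg, 9.06 to 14.3 in WT eTreg, 2.42 and 2.48 in FntbKO cTreg and 8.11 and 5.23 in FntbKO eTreg. A region inside Zbtb46, a dendritic cell factor, held 2.85 to 6.9 CPM in WT eTreg.

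Of the 10 members with the highest WT eTreg means, a value the rule used, both FntbKO eTreg libraries lay above both FntbKO cTreg libraries at 10. Both FntbKO cTreg libraries lay below all WT cTreg libraries at 7. Over all members these orders held at 60.3% and 27.8%, and over all regions at 24.1% and 15.6%. The rise in FntbKO cells passed at 3 (Dhrs9, Lnx2 and Albfm1), and at the other 7 the adjusted p in edgeR was 0.0702 to 0.279. The region inside Lnx2 (chr5:147055779-147056333), which encodes a ubiquitin ligase, held 19, 26.5 and 17.8 CPM in WT cTreg, 41.2, 42.8 and 48.4 in WT eTreg, 8.59 and 15.5 in FntbKO cTreg and 21.2 and 27.1 in FntbKO eTreg. The FntbKO cTreg libraries were below all others, and FntbKO eTreg overlapped WT cTreg. Its rise in FntbKO cells was 0.96 (SE 0.22, adjusted p = 0.0279, edgeR). Regions inside Cfap61, Hip1, an endocytic adaptor, Cc2d2a, Tbck and Albfm1, and near N4bp1, Sema6d and Il10, completed the 10, with FntbKO eTreg between 44.8% (N4bp1) and 66.2% (Cc2d2a) of WT and FntbKO cTreg between 43.1% (Albfm1) and 76.6% (Hip1).

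The smallest adjusted p-values for the rise in FntbKO cells, after Dhrs9 and Maf, were at regions near Olfr183 (1.85, SE 0.36), Uspl1 (1.43, SE 0.28) and Prex1 (1.65, SE 0.33) and inside Ppfibp2 (1.89, SE 0.39). Their adjusted p-values in edgeR were 0.0102 at Olfr183 and Uspl1, 0.0115 at Prex1 and 0.0136 at Ppfibp2. Prex1, an activator of the GTPase RAC, is 73.9 kb from its region (chr2:166491874-166492492), which held 6.34, 8.08 and 6.42 CPM in WT cTreg, 14.6, 17 and 19.5 in WT eTreg, 1.34 and 3.91 in FntbKO cTreg and 8.3 and 9.58 in FntbKO eTreg. The 4 groups again stood in the order of Maf and Tigit without overlap. The region near Olfr183, an olfactory receptor gene, was called in both tested contrasts, as was the Runx1 region. Near Olfr183, FntbKO cTreg held 1.07 and 1.96 CPM against 3.58 to 5.44 in WT cTreg (-1.45, SE 0.34, adjusted p = 0.0432, edgeR). For Runx1 the rise in FntbKO cells was 1.38 (SE 0.35, adjusted p = 0.0427, edgeR).

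At the other extreme were members where FntbKO eTreg stayed at or below the WT cTreg level. The FntbKO eTreg mean was below the WT cTreg mean at 117 members (19.8%), against 53.0% of all regions. For the other openings the share was 0%, which the rule itself fixes. The rule used the means of both groups, so this share is a description. Among members with a gene and at least 6 CPM in WT eTreg, the lowest ratio was at Cmklr1, the receptor for chemerin (chr5:113639184-113639597, inside the span), with 0.551 to 2.35 CPM in WT cTreg, 5.22 to 7.57 in WT eTreg, 0.537 and 1.3 in FntbKO cTreg and 0.791 and 2.07 in FntbKO eTreg, 21.1% of WT eTreg. Nav2, a cytoskeletal protein of migrating neurons, followed at 23.9% (chr7:49093548-49094089), with 1.19 and 3.16 CPM in FntbKO eTreg against 7.12 to 10.3 in WT eTreg. Slc19a1, a folate carrier, and Stac, an adaptor protein, had 25.6% each. At Stac (chr9:111608671-111609111) FntbKO cTreg was also low, 0.268 and 1.3 CPM or 19.7% of WT cTreg, and the difference there was -2.08 (SE 0.50, adjusted p = 0.0504, edgeR). In these regions the FntbKO eTreg libraries lay within or near WT cTreg, and counts per library were low.

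FntbKO cTreg stood above WT cTreg at a minority of members. The highest ratios, among members with a gene and at least 1 CPM in every group, were at Ccdc138 (222%), Gpc1, a glypican of the cell surface (187%), Scamp5 (175%), Spock2 (163%), Adcy7, an adenylate cyclase of lymphocytes (159%), and Il2rb (159%). At Gpc1 (chr1:92834045-92834311) FntbKO cTreg held 4.03 and 2.94 CPM against 1.5 to 2.34 in WT cTreg, and FntbKO eTreg held 1.19 and 3.56. None of these 6 passed the test of FntbKO cTreg against WT cTreg (adjusted p = 0.368 to 0.646, edgeR).

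Members were spread over many genes and lay far from gene starts. They had 466 genes, of which 405 had 1 member, 54 had 2 and 7 had at least 3. Atxn1, a transcriptional repressor, and Nav2 had 4 each, and Camk2d, Il10, Itga2, Klrg1 and Niban1 had 3. The 4 Atxn1 members, all inside the gene, had FntbKO eTreg at 54.9%, 55.8%, 46.1% and 31.1% of WT and FntbKO cTreg at 37.3%, 55.6%, 49.0% and 37.0%. The 4 of Nav2 ranged more widely, with FntbKO cTreg from 36.6% to 109% of WT. Of the 466 genes, 78 also had another opening. Another member lay within 10 kb of 51 members (8.64%). Counted within their own sets, the shares were 10.1% for the other openings and 78.4% for all regions.

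Of the 571 members on chromosomes with listed starts, 19 (3.33%) overlapped a start, against 2.53% of the other openings and 13.0% of all regions. Over 10 kb from any listed start lay 409 members (71.6%), 71.9% of the other openings and 59.6% of all regions, and the median distances were 23.5, 22.5 and 15.2 kb. Inside a gene span were 311 of the 590 (52.7%), 57.2% of the other openings and 62.8% of all regions. Members had a median width of 375 bp, against 384 bp and 352 bp. In position and width, members were thus close to the other openings, and both differed from all regions in the same direction.

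**Figure D5:**
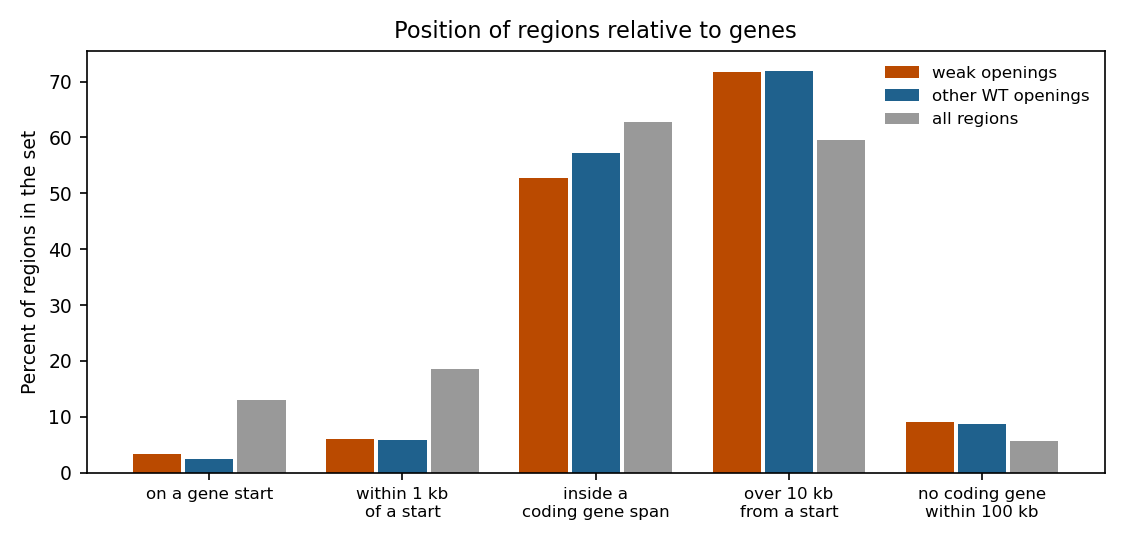
Percent of members, other WT openings and all regions in each class of position relative to listed gene starts and gene spans. Overlap with a start is 3.33%, 2.53% and 13.0%, and a distance over 10 kb is 71.6%, 71.9% and 59.6%.

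The values nearest to each limit show how the set was bounded. For the 2-fold limit, regions of Klrg1 and Plcd1, with ratios of 2.00, were inside, and regions of Cebpa and Gm33887 with nearly the same ratio were outside. For the limit on FntbKO eTreg, Aebp2 and Maf were inside at 0.999 of the WT geometric mean, and Cask was just outside. There were 2256 regions that missed only the 2-fold limit, 535 that missed only 3 CPM and 117 that missed only the separation of WT libraries, besides the 752 other openings.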

How the data were processed

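Raw read counts for 77076 regions in 10 libraries were used as the authors deposited them, without normalization. Per the submitters' processing notes, SAMtools, Trimmomatic 0.36, Picard 2.9.4, bedtools and MACS2 2.1.1 were used with mm10 and GRCm38; the aligner and the merging of regions are not given in the sources used here. Even numbers made up 66.7% to 79.2% of a library's counts, which mates counted one by one would give. The table does not state whether coordinates start at 0 or 1.

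CPM was scaled by the column total. Members and gene lists were chosen with earlier results of these data known. All 4 groups entered one fit of edgeR 4.0.16 (R 4.3.3), with filterByExpr, TMM, 1 mean per group and robust quasi-likelihood tests, adjusted by Benjamini-Hochberg over 76216 regions; all 590 members passed the filter. The script was tested on simulated data. DESeq2 1.42.0 was an alternative. Genes are RefSeq protein-coding spans (GRCm38.p6), and distances to starts use the listed RefSeq promoter windows, with chromosome 18 not used.

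Named members were the strongest in WT eTreg, the lowest in FntbKO eTreg relative to WT (at least 6 CPM), the highest and lowest in FntbKO cTreg relative to WT, those with the smallest adjusted p, genes with most members, up to 4 per list and those nearest the limits. The remaining effector members, those at gene starts, the other openings and the Itga2, Klrg1 and Pdcd1 pairs were named after their values were seen. Some results are not reported here.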

Additional observations from a re-analysis of the deposited data

Results flagged for a closer look

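At 8 members both FntbKO eTreg libraries lay below both FntbKO cTreg libraries, the opposite of WT, where every eTreg library lay above every cTreg library by the rule. The log2 difference of FntbKO eTreg from FntbKO cTreg was -0.87 at Il2rb, -0.70 at Bace2, -0.69 at 1700057G04Rik, -0.56 at Ccdc138, -0.46 at Snx13, -0.44 at Camk2d, -0.24 at Zfp503 and -0.22 at Irf8. The interaction of genotype and subset did not pass at any of them (adjusted p = 1.0, edgeR), and the reverse order held for 24.7% of all regions. FntbKO eTreg library 1 held 0 CPM at Il2rb and 0.395 CPM at Snx13, so these rest on few reads.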

How the results depend on the processing

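The number of members was 590, and 351 with a minimum of 5 CPM, 860 with 2 CPM, and 601 with TMM library sizes, of which 576 were shared. Leaving out 1 library in the rule gave 473 to 898 members (898 and 886 without WT eTreg library 1 or 2), and leaving out number 1 or 2 in every group gave 637 or 1411. The 26 members called higher in FntbKO eTreg than FntbKO cTreg became 21 with total counts, 39 with halved counts, 37 with DESeq2 and 21 in a fit of the 2 groups alone, and 0 to 94 when 1 library was left out. The 4 called lower in FntbKO cTreg than WT cTreg became 10 with DESeq2, 0 in a fit of the 2 groups and 0 to 38 when 1 library was left out. With 1 library left in a FntbKO group, that library is assumed to vary like the others. With the replicate number as a block the counts were 74 and 17. The numbers were not taken as pairs: same-numbered WT libraries correlated in their deviations by 0.16, 0.08 and 0.03 and the FntbKO libraries by 0.18. Counting only regions that overlap the gene span, effector members were 6 in place of 18. For 14 calls named above, 160 of 224 values under other settings kept the call, 64 lost it and 0 reversed. The cause of these changes was not tested. Depth limits members with few reads: at a CPM of 1, libraries of 5058328 to 15328775 counts hold few of them.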
